A study of Mus musculus with 72 samples.

Results

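The junctions described here are translocations joined through 2 to 4 bp of micro-homology, taken from 60 LAM-HTGTS libraries (a translocation sequencing method based on linear amplification from a fixed primer) of mouse neural progenitor cells. In this assay Cas9 cuts 1 site, the bait, and each sequenced junction shows the bait end fused to another break, the prey. A junction was taken when its prey lay on an autosome (chromosomes 1 to 19) other than the bait chromosome and when 2, 3 or 4 bases at the join could be read from either partner. This gave 57398 members among 169098 translocations and 593366 junctions in all, with 25321 members of 2 bp, 19698 of 3 bp and 12379 of 4 bp. The rest of the translocations were 33918 direct joins with no shared base, 25046 joins with 1 bp, 22282 joins with 5 bp or more and 30454 joins with inserted bases.

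The Xrcc4/p53-deficient neural progenitor cells came from 1 embryonic stem cell line, NestinCre+ Xrcc4-/- p53-/-, and every Xrcc4/p53-deficient group shares that line, the solvent controls included. Wild-type neural stem/progenitor cells (NSPC) were primary cells from embryonic mouse brain. After nucleofection with Cas9 and the bait guide, cells received dimethyl sulfoxide (DMSO), ART558, aphidicolin (Aph), or both agents. Aph, which slows replicative DNA polymerases, was given at 0.5 µM for 72 h and then at 0.25 µM for 24 h. ART558, an inhibitor of DNA synthesis by polymerase theta (Pol θ), was given at 5 µM and then at 2.5 µM. The Xrcc4/p53-deficient cells gave 18 DMSO libraries, 9 ART558 libraries, 9 Aph libraries and 9 Aph+ART558 libraries, over baits on chromosomes 6, 8, 12 and 14. Wild-type cells gave 7 Aph and 8 Aph+ART558 libraries on the chromosome 6 and 14 baits, and no wild-type DMSO or ART558-alone library was analysed here. All Xrcc4/p53-deficient libraries are of the parental line. The labels assign most libraries to a theta collection, but not 7 chromosome 6 DMSO libraries nor the Xrcc4/p53-deficient chromosome 14 libraries, which are called the other collection below.

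Broken DNA ends are joined mainly by non-homologous end joining, which seals ends with little or no shared sequence and needs the XRCC4 protein as the partner of DNA ligase IV. Cells without XRCC4 use alternative end joining. In its best known form the ends are resected to single strands, short matching stretches anneal, and Pol θ extends the annealed strands before ligation. The length of the matching stretch and the number of bases trimmed from an end are therefore the usual readouts of this pathway. Recurrent DNA break clusters (RDCs) are regions, mostly in long neural genes, where breaks gather under replication stress.

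Of the 60 libraries, 58 held at least 50 members and entered the comparisons. They held 325 to 8194 translocations (median 2665.5) and 107 to 4106 members (median 847.5). An ART558 library of the chromosome 8 bait with 4 members and a DMSO library of the chromosome 14 bait with 21 members were left out. Some wild-type chromosome 6 libraries shared junctions. Replicates 1 and 2 of the Aph+ART558 group, and replicates 2 and 4, had 19 identical member positions, 25.7% of the smaller library of each pair. Over all 444 pairs of libraries of 1 bait the median was 0, and 6 pairs exceeded 5%. Among these was an Xrcc4/p53-deficient pair of the chromosome 8 bait, replicate 1 of Aph+ART558 and replicate 1 of ART558. It shared 4 positions, 5.06% of the smaller library. Results that rest on wild-type cells are also given without the chromosome 6 bait. The study describes the wild-type replicates as biological repeats, and the Xrcc4/p53-deficient ones as technical repeats in its reporting summary but as biological replicates in its legends, so p-values within the latter may measure only technical spread. Drug and sequencing run cannot be told apart for Aph+ART558 against Aph on the chromosome 8 and 12 baits, nor for ART558 against DMSO on the chromosome 8 bait. A share of translocations also cannot tell fewer joins of this kind from more joins of other kinds.

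The bait breaks on chromosomes 6, 12 and 14 are shown first, because the bases left at them decide which homologies can form. Each sequence runs 5′ to 3′ toward the Cas9 cut, with 95 bases before it and 10 bases after it, in GRCm38. Capitals mark the most used homology word at the 3 most frequent bait ends of each bait. The coordinates are chr6:70950099-70950203 on the minus strand, and chr12:12993960-12994064 and chr14:83268752-83268856 on the plus strand.
Chromosome 6 bait: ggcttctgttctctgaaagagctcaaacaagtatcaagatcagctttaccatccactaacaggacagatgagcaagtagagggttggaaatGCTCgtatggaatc
Chromosome 12 bait: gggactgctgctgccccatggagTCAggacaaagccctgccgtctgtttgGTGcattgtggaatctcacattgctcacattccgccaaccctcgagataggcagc
Chromosome 14 bait: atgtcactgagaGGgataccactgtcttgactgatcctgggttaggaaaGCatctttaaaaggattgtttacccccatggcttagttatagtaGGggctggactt

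The guides that set these 3 breaks, read on their own strand, are given next, since prey sites that resemble a guide are described at the end.
Chromosome 6 guide: gagggttggaaatgctcgta
Chromosome 12 guide: attccgccaaccctcgagat
Chromosome 14 guide: ggcttagttatagtaggggc
The shared bases of a member matched the reference bait sequence in 99.8% of 26770 members of the chromosome 6 bait, 98.1% of 6240 of the chromosome 8 bait, 98.3% of 14494 of the chromosome 12 bait and 97.8% of 9894 of the chromosome 14 bait.

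Single joins show the geometry. In the sequences below, 25 bases of bait precede the shared bases, which are in capitals, and 25 bases of prey follow. All bases are reference sequence placed at the junction of 1 read, and all prey are on the minus strand. The first 2 are Aph and Aph+ART558 joins of the chromosome 12 bait, with 2 and 21 bait bases lost, at positions 38775693 and 38772357 of chromosome 14. Both prey lie in Nrg3, which encodes neuregulin 3, a ligand of the ERBB4 receptor and 1 of the loci that the study edits.
Chromosome 12 bait to Nrg3, Aph: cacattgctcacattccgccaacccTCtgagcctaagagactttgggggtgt
Chromosome 12 bait to Nrg3, Aph+ART558: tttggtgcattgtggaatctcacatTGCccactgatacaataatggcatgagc
The next join links the chromosome 14 bait, cut with 0 bases lost, to position 77271781 of chromosome 6 in an Aph library. The prey lies in Ctnna2, which encodes an alpha-catenin that ties cadherins to actin in neurons.
Chromosome 14 bait to Ctnna2, Aph: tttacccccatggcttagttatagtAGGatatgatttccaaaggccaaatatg

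Homology of 2 to 4 bp was most common in Xrcc4/p53-deficient cells without the Pol θ inhibitor. It made up 44.8% ± 6.58 of translocations in DMSO (SD, n = 17, from 34.3 to 53.7 with a median of 47.2) and 38.6% ± 4.21 in Aph (n = 9, 31.6 to 43.5, median 38.2). With ART558 the share was 27.1% ± 2.65 (n = 8, 22.3 to 31, median 26.8), and with Aph+ART558 it was 27.5% ± 3.04 (n = 9, 23.2 to 32.9, median 27.1). The ART558 libraries all lay below every DMSO library, while the Aph and Aph+ART558 ranges overlapped over the baits together. Wild-type NSPC had 24.1% ± 9.03 in Aph (n = 7, 10.3 to 32.2) and 22.2% ± 9.87 in Aph+ART558 (n = 8, 11 to 32.7). Homology length chose these junctions, so its shares are descriptions and carry no test.

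Much of the spread came with the bait and the collection. On the chromosome 6 bait the 2 DMSO libraries of the main collection had 34.3% and 36.5%, the 3 ART558 libraries 22.3%, 26.5% and 26.8%, the Aph library 35.8%, and the Aph+ART558 libraries 23.2%, 26.5% and 27.7%. The 7 DMSO libraries of the other collection on this bait had 49.4 to 53.7%, above all 9 of these. On the chromosome 8 bait the DMSO libraries had 44.1%, 47.2% and 49.3%, the ART558 libraries 30.1% and 31%, the Aph libraries 42.7%, 43.2% and 43.5%, and the Aph+ART558 libraries 29.0%, 30.9% and 32.9%. On the chromosome 12 bait DMSO gave 34.3% and 37.8%, ART558 26.0 to 27.2%, Aph 31.6% and 34.0%, and Aph+ART558 24.8 to 27.1%. Within each of these 3 baits every library with the inhibitor lay below every library without it. Wild-type cells differed by bait. The chromosome 14 bait gave 28.6 to 32.2% in Aph and 30.7 to 32.7% in Aph+ART558, and the chromosome 6 bait gave 10.3 to 21.8% and 11 to 15.3%. On that chromosome 6 bait 33.3 to 50.1% of wild-type translocations carried inserted bases.

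Of the 3 lengths, 2 bp was the most common and 4 bp the least common in each genotype and treatment. In Xrcc4/p53-deficient DMSO libraries 19% of translocations had 2 bp, 16.1% had 3 bp and 9.67% had 4 bp. With ART558 these were 12.5%, 9.26% and 5.36%. Aph libraries had 17.3%, 13.0% and 8.22%, and Aph+ART558 libraries had 13.0%, 8.82% and 5.68%. Wild-type libraries had 9.91%, 8.35% and 5.87% in Aph and 9.71%, 7.01% and 5.54% in Aph+ART558. The lengths just outside the rule went in different directions. Joins with 1 bp were 12.1% in DMSO and 17.9% in ART558, whereas joins with 5 bp were 5.41% and 3.34%. Direct joins were 11.4% in DMSO, 27.5% in ART558, 18.7% in Aph and 25.8% in Aph+ART558. The number of 2 to 4 bp joins per direct join was thus 4.88 in DMSO (1.61 to 8.77, with the 7 chromosome 6 libraries of the other collection at 6.81 to 8.77), 1.02 in ART558 (0.783 to 1.31), 2.16 in Aph (1.24 to 2.74) and 1.09 in Aph+ART558 (0.841 to 1.47). Wild-type cells had 1.18 and 1.07.

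**Figure D1:**
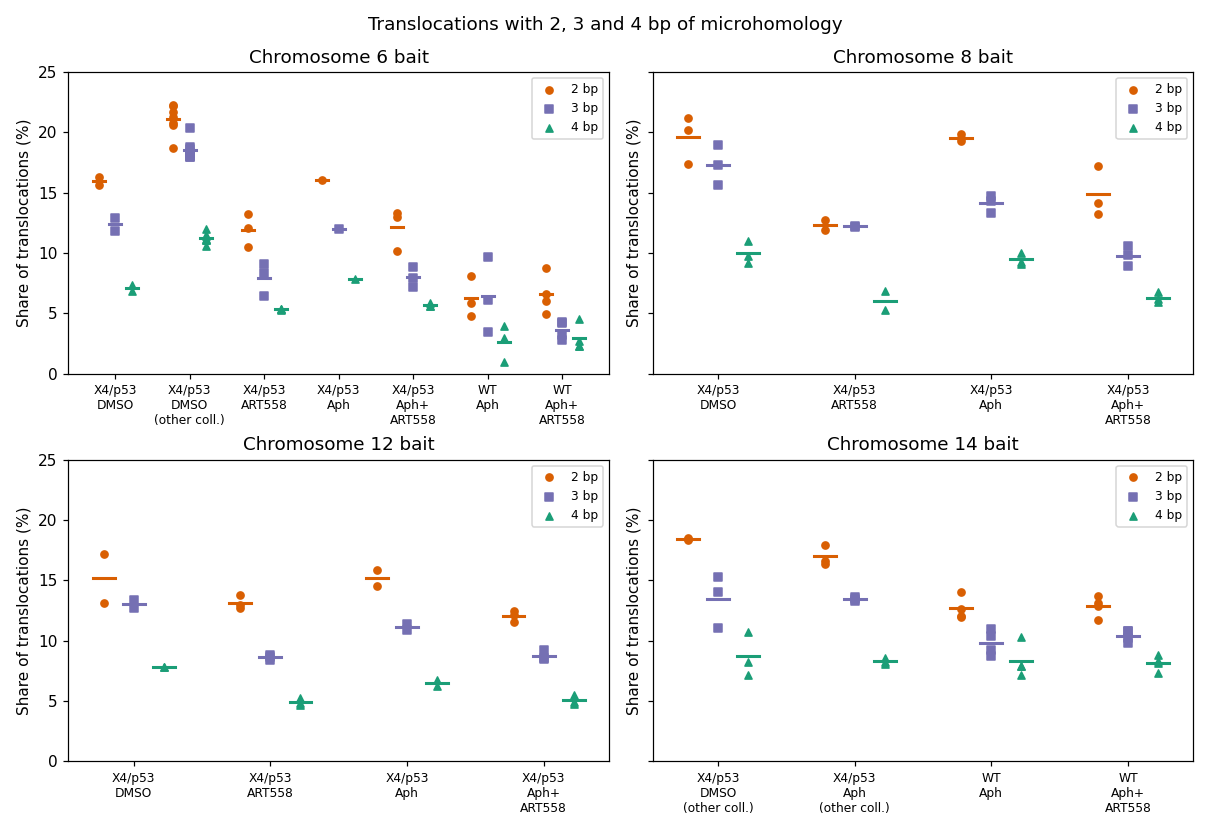
Share of translocations (%) with 2, 3 and 4 bp of micro-homology, 1 panel per bait, with 1 point per library and a line at the group mean (X4/p53, Xrcc4/p53-deficient; WT, wild-type NSPC; other coll., the other collection). The means of all 3 lengths are lower in the ART558 groups than in DMSO on the chromosome 6, 8 and 12 baits, and the chromosome 6 libraries of the other collection sit highest, with mean 2 bp, 3 bp and 4 bp shares adding to 50.9%.

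Within the members the mix of lengths moved little. Joins of 2 bp were 42.7% of members in DMSO, 46.3% in ART558, 45% in Aph and 47.2% in Aph+ART558. In wild-type cells they were 41.9% in Aph and 45.5% in Aph+ART558. Joins of 4 bp were 19.8 to 21.6% of members in the Xrcc4/p53-deficient groups and 22.4% and 24% in the wild-type groups.

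Bait ends of 2 to 4 bp translocations lost more bases in Xrcc4/p53-deficient cells treated with ART558 than in DMSO. Loss was counted from the last bait base before the Cas9 cut to the last aligned bait base, with the shared bases counted as kept. On the chromosome 6 bait mean loss was 14.1 and 14.9 bp in DMSO and 22.6, 23.8 and 26.0 bp in ART558. On the chromosome 8 bait it was 15.1, 16.6 and 17.2 bp in DMSO and 39.1 and 39.4 bp in ART558. On the chromosome 12 bait it was 33.2 and 36.8 bp in DMSO and 53, 53.6 and 55.4 bp in ART558. The groups did not overlap on any of the 3 baits. The difference averaged 17.2 bp over baits (exact two-sided permutation of libraries within baits, adjusted p = 0.005). Within 1 sequencing run, on the chromosome 6 and 12 baits, the means were 24.2 against 14.5 bp and 54.0 against 35.0 bp. Baits are not comparable in raw loss, because the bait sequence that can be read before the cut is 98 bp on chromosome 6, 129 bp on chromosome 8, 132 bp on chromosome 12 and 164 bp on chromosome 14.

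Aph alone also went with more loss than DMSO. Mean loss on the chromosome 8 bait was 21.7, 21.9 and 23.8 bp in Aph, above the 3 DMSO libraries. On the chromosome 12 bait both Aph libraries had 42.4 bp. On the chromosome 14 bait the Aph libraries had 45, 50.4 and 53.9 bp and the DMSO libraries 37.3, 39.6 and 41.1 bp. The single Aph library of the chromosome 6 bait had 20.02 bp. The difference from DMSO was 7.38 bp over 4 baits (exact permutation, adjusted p = 0.00167). The DMSO libraries on the chromosome 6, 8 and 12 baits serve both this comparison and that with ART558.

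With ART558 added to Aph, loss was higher by 11 bp than with Aph (exact permutation, adjusted p = 0.005). On the chromosome 8 bait the Aph+ART558 libraries had 36.0, 45.7 and 46.1 bp, and on the chromosome 12 bait 52.2, 53.8 and 53.8 bp, all above the Aph libraries of the same bait. On the chromosome 6 bait, the only 1 with both groups in 1 sequencing run, they had 20.5, 22.8 and 22.8 bp against 20.02 bp, a difference of 2.02 bp with 1 Aph library.

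The same pattern stood in the share of nearly intact ends, those with at most 10 bp lost. In DMSO these were 55.9% of members on the chromosome 6 bait, 45.7% on the chromosome 8 bait and 27.8% on the chromosome 12 bait. In ART558 they were 37.7%, 13.1% and 7.35%. The difference was -23.8 percentage points (exact permutation, adjusted p = 0.005). Aph libraries had 41.6%, 31%, 19.2% and, on the chromosome 14 bait, 19.99% against 31.7% in DMSO, a difference of -12.3 points (adjusted p = 0.00167, exact permutation). Aph+ART558 libraries had 43.1%, 14.1% and 6.86%, which differed from Aph by -9.28 points (adjusted p = 0.024, exact permutation). Within 1 sequencing run, on the chromosome 6 bait, that difference was 1.47 points in the other direction, and it did not pass the test at a limit of 5 bp lost (-2.36 points) nor without any 1 of the 3 Aph libraries of the chromosome 8 bait.

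In wild-type NSPC the inhibitor was not accompanied by a detectable change in loss. The chromosome 14 bait gave 71.4, 71.9, 78.4 and 79.8 bp in Aph and 76.6, 76.8, 76.9 and 78.1 bp in Aph+ART558, and the ranges overlapped. The chromosome 6 bait gave 13.2, 20.1 and 23.9 bp in Aph and 14.1, 15, 16.1 and 20.5 bp in Aph+ART558. The difference was -0.455 bp (exact permutation, adjusted p = 0.824) and 1.75 bp without the chromosome 6 bait, and with the replicate number as a block it was 0.193 bp. Nearly intact ends differed by 3.43 points (adjusted p = 0.594, exact permutation), and by -2.29 points without the chromosome 6 bait. Whether the response to ART558 differs between the genotypes was not tested.

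Wild-type members of the chromosome 14 bait had lost more bases than those of Xrcc4/p53-deficient cells under the same drug. In Aph the 4 wild-type libraries lay between 71.4 and 79.8 bp and the 3 Xrcc4/p53-deficient libraries between 45 and 53.9 bp, a difference of 25.6 bp (exact permutation, adjusted p = 0.049, with 0.0286 the smallest p that 4 against 3 libraries allow). Nearly intact ends were 10.7% in wild-type and 19.99% in Xrcc4/p53-deficient libraries (-9.29 points, exact permutation, adjusted p = 0.049). In wild-type cells 70.5% of members in Aph and 72.2% in Aph+ART558 had lost 61 bp or more. On the chromosome 6 bait under Aph+ART558 the genotypes differed by -5.60 bp (exact permutation, adjusted p = 0.134). Genotype goes together with cell source, sequencing run and, on chromosome 14, collection, and these cannot be told apart.

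**Figure D2:**
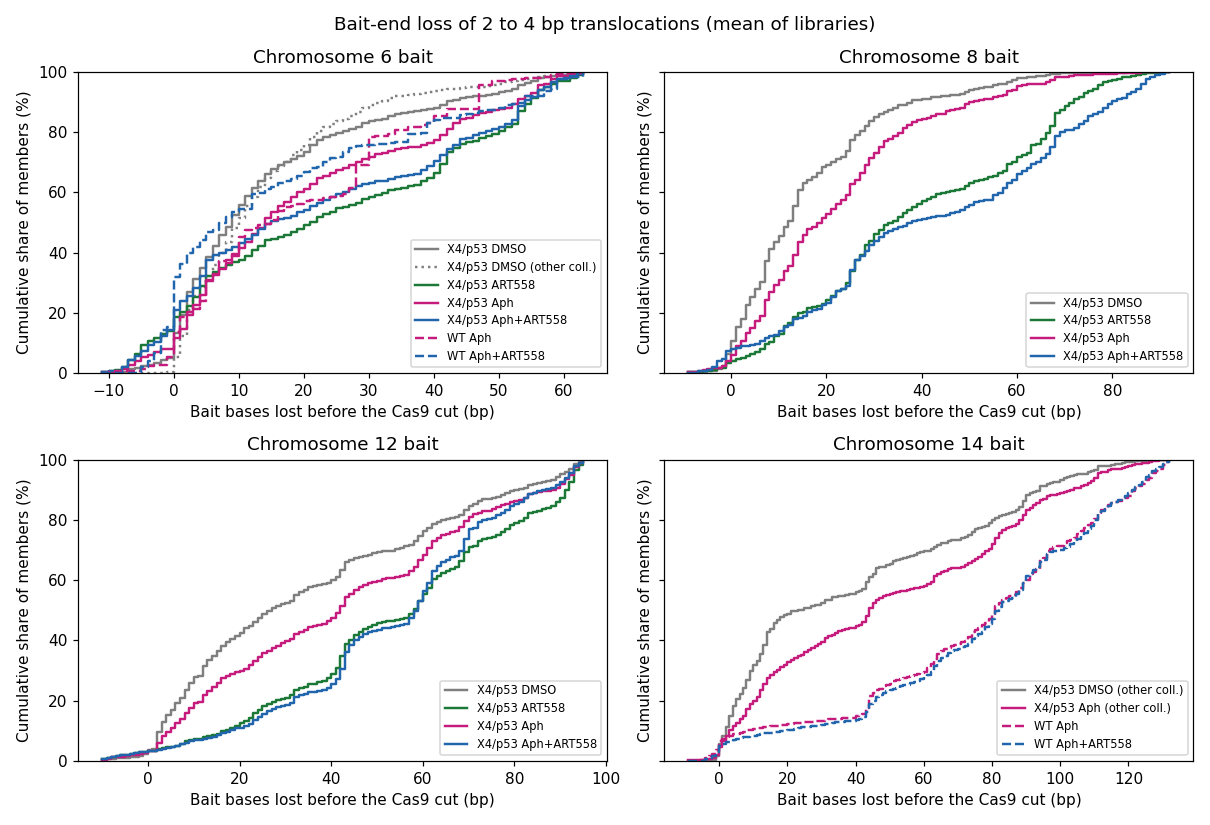
Cumulative share of members (%) against bait bases lost before the Cas9 cut (bp), as the mean of libraries in each group, 1 panel per bait (X4/p53, Xrcc4/p53-deficient; WT, wild-type NSPC, dashed; other coll., the other collection; values below 0 are bait ends aligned past the cut). Curves with ART558 run below DMSO and Aph over most of their length on the chromosome 8 and 12 baits, and the wild-type curves of the chromosome 14 bait, with 10.7% and 8.41% of ends at 10 bp or less, stay low until about 40 bp.

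A minority of bait ends was aligned past the cut. On the chromosome 6 bait these were 4.89% of members in DMSO, 8.12% in the Aph library, 14.1% in ART558 and 14.2% in Aph+ART558, and 0.407% in DMSO of the other collection. On the chromosome 12 bait they were 2.18%, 2.54%, 3.03% and 3.03%. The chromosome 8 bait had 6.36% in DMSO, 4.13% in Aph and 3.28% in ART558, and 7.22% in Aph+ART558, where the thinnest library had 15%. Wild-type cells had 3.71% in Aph and 2.92% in Aph+ART558 on the chromosome 14 bait, and 5.49% and 15.5% on the chromosome 6 bait, whose libraries share junctions. These shares were not tested. By length of the homology, loss in DMSO averaged 20.8 bp for 2 bp joins, 21.7 bp for 3 bp joins and 22.3 bp for 4 bp joins.

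Direct joins of the same library served as the comparison for loss, since run and depth are shared. In Xrcc4/p53-deficient DMSO libraries members had lost 5.98 bp less than direct joins, and 14 of 17 libraries went this way (exact sign-flip permutation, adjusted p = 0.00192). The gap was widest on the chromosome 12 bait, with 35.0 bp for members and 53.1 bp for direct joins, and on the chromosome 14 bait, with 39.3 and 52.8 bp. On the chromosome 6 bait, with 9 of the 17 libraries, it was -1.20 bp, and 3 of them went the other way. In Aph members had lost 7.53 bp less in 8 of 9 libraries (exact sign-flip permutation, adjusted p = 0.0201). The exception was the chromosome 6 library, at 1.58 bp. Members gain their shared bases by the definition of loss. With those bases counted as lost the differences were -3.19 bp in DMSO and -4.77 bp in Aph, and neither passed. With ART558 the difference was 1.67 bp (adjusted p = 0.516, exact sign-flip permutation), but its sign differed by bait, at 6.27 bp on chromosome 6 (3 of 3 libraries higher), 4.87 bp on chromosome 8 (2 of 2 higher) and -5.05 bp on chromosome 12 (3 of 3 lower). For Aph+ART558 the setting mattered, since it was 0.813 bp (adjusted p = 0.481, exact sign-flip permutation) but 3.55 bp, and called, with shared bases counted as lost.

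Wild-type members lay on the other side of direct joins. They had lost 15.5 bp more in Aph, in 7 of 7 libraries (exact sign-flip permutation, adjusted p = 0.0331), and 12.9 bp more in Aph+ART558, in 8 of 8 libraries (adjusted p = 0.0201). The Aph call was lost in all 7 fits that left out 1 library (14.3 to 17.0 bp). Without the chromosome 6 bait the gaps were 19.4 and 18.6 bp, with 4 libraries each, and neither passed. On the chromosome 14 bait members and direct joins had lost 75.4 and 56.0 bp in Aph and 77.1 and 58.5 bp in Aph+ART558. The gap between members and direct joins itself differed between drugs in Xrcc4/p53-deficient cells, by 10.1 bp for ART558 against DMSO (exact permutation, adjusted p = 0.0075), 5.67 bp for Aph+ART558 against Aph (adjusted p = 0.0257) and 3.02 bp for Aph against DMSO (adjusted p = 0.0257), which did not pass with medians (5.0 bp). Within sequencing runs the second was 1.03 bp, from 3 chromosome 6 libraries against 1. In wild-type cells it differed by -1.88 bp (adjusted p = 0.422, exact permutation). These comparisons were added after the first results were seen and share libraries.

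The bait ends that members used most lay at short words, marked above for the chromosome 6, 12 and 14 baits. On the chromosome 6 bait the leading end was the cut itself, position 70950109, with 7.75% of members as the mean over libraries. Its shared bases were TC in 45.6% and CTC in 35.5% of cases. Ends 1 and 2 bp back, led by GCT and GC, each held 4.85%. The end 2 bp back held 7.59% of members in DMSO, 8.64% in DMSO of the other collection and 4.67% in the Aph library, but 2.09% in ART558 and 1.85% in Aph+ART558. In wild-type cells it held 1.75% in Aph and 3.52% in Aph+ART558. The cut itself held 16.4% of members in wild-type Aph+ART558 and 3.52 to 8.32% in the other groups.

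On the chromosome 8 bait the end 7 bp before the cut, where CT led, held 6.78% of members in DMSO and 5.33% in Aph, but 1.78% in ART558 and 0.911% in Aph+ART558, and no library with the inhibitor reached one without it. The CA at 13 bp held 4.92% in DMSO, 3.92% in Aph, 1.79% in ART558 and 1.87% in Aph+ART558. The CA at 25 bp held 3.49% in DMSO, 3.94% in ART558, 3.57% in Aph and 5.23% in Aph+ART558. On the chromosome 12 bait the leading ends lay 43, 42 and 69 bp back, at GT, TG and TCA. The first held 2.45% in DMSO, 3.01% in Aph, 4.23% in ART558 and 5.69% in Aph+ART558. The TCA held 1.71%, 2.09%, 3.02% and 3.95% in the same order.

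The chromosome 14 bait had its leading ends at GC 44 bp back, at GG on the cut and at GG 81 bp back. The far GG held 0.697% of members in Xrcc4/p53-deficient DMSO, 2.13% in Aph, 2.65% in wild-type Aph and 2.74% in wild-type Aph+ART558. The GG at the cut held 3.92%, 2.70%, 3.00% and 1.96% in the same order. These ends were chosen by their frequency, so their values carry no test.

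Averaged over baits, shared bases held less G and C with either drug in Xrcc4/p53-deficient cells. The GC share of homology bases was 48.5% in DMSO and 43.8% in ART558 on the chromosome 6 bait, 41.4% and 36.4% on the chromosome 8 bait, and 57.9% and 57.1% on the chromosome 12 bait. Groups overlapped on that last bait, also for Aph+ART558 against Aph (-0.250 points). They overlapped on the chromosome 14 bait for Aph against DMSO (-0.963 points). The differences were -3.54 percentage points for ART558 against DMSO (exact permutation, adjusted p = 0.0072), -2.63 for Aph against DMSO (adjusted p = 0.005) and -2.06 for Aph+ART558 against Aph (adjusted p = 0.0309). Among 2 bp joins alone the first and last were -0.942 and -1.17 points, and within sequencing runs -2.77 and -2.23 points, and none of these passed. Within runs the last compares 3 libraries with 1, where the smallest exact p is 0.25. Wild-type cells differed by 2.30 points (adjusted p = 0.590, exact permutation), and by -1.84 points without the chromosome 6 bait. The composition of the bait changes with distance from the cut, so GC share and loss are not independent measures.

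Prey of 2 to 4 bp translocations gathered in RDC windows in Aph-treated Xrcc4/p53-deficient cells. Windows of 1 Mb were centred on the RDCs that the study lists with a position, 102 of them on autosomes, of which 39 lie in constant timing regions (CTRs, which replicate at one time throughout) and 63 in timing transition regions (TTRs, between early and late replication). RDCs were defined in earlier work with the same kind of assay under Aph, so the direction of the Aph difference is not independent evidence. The study calls its RDC intervals previously defined and its deposited break libraries generated in the study. It does not state outright whether any of these libraries entered the definition. A wider list of the study names 42 further RDC genes without positions, which count as elsewhere. Adding windows at the midpoints of the 41 on autosomes, an alternative chosen after the data were seen, gave 6.98 points for the difference between Aph and DMSO that follows. The windows held 3397 members, 5.92% of all. In Aph they held 11.5% ± 1.71 of members (SD, n = 9, from 8.61 to 14.2, median 11.8), against 4.53% ± 0.614 in DMSO (n = 17, 3.68 to 5.74, median 4.53). The difference, over baits of the matching collection, was 6.77 percentage points (exact permutation, adjusted p = 0.00167), and every Aph library lay above every DMSO library.

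With Aph+ART558 the windows held 5.77% ± 0.834 of members (n = 9, 4.14 to 6.69), below all Aph libraries. The difference was -5.36 points (exact permutation, adjusted p = 0.005). By bait it was 4.83% against 9.82% on chromosome 6, 6.31% against 12% on chromosome 8 and 6.15% against 11.6% on chromosome 12. Within 1 sequencing run, on the chromosome 6 bait, it was -4.98 points with a single Aph library. ART558 without Aph gave 4.30% ± 1.21 (n = 8, 2.21 to 5.62), a difference of -0.141 points from DMSO (exact permutation, adjusted p = 0.819).

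By replication timing, CTR windows held 1.32% of members in DMSO, 5.12% in Aph and 2.66% in Aph+ART558. TTR windows held 3.21%, 6.39% and 3.10%. In wild-type cells CTR windows held 1.87% in Aph and 2.82% in Aph+ART558 on the chromosome 14 bait, and 0.689% and 3.90% on the chromosome 6 bait, where 1 library reached 8.60%. TTR windows held 2.45% and 2.69% on the chromosome 14 bait and 1.73% and 2.27% on the chromosome 6 bait.

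In wild-type NSPC the RDC share was 3.50% ± 1.67 in Aph (n = 7, 0.794 to 5.14) and 5.85% ± 1.73 in Aph+ART558 (n = 8, 2.75 to 8.60). The ranges overlapped. Other translocations of the same libraries had 3.89% in Aph and 5.33% in Aph+ART558. The members' difference was 2.48 points (exact permutation, adjusted p = 0.049), and it did not pass without the chromosome 6 bait, whose libraries share junctions (1.20 points), nor in 10 of 15 fits that left out 1 library (2.07 to 3.05 points). It also did not pass with the replicate number as a block (1.95 points). On the chromosome 14 bait in Aph the 4 wild-type libraries held 2.96 to 5.14% and the 3 Xrcc4/p53-deficient libraries 8.61 to 14.2%. The difference was -7.25 points (exact permutation, adjusted p = 0.049, with 0.0286 the smallest possible p). That call was lost in all 7 fits that left out 1 library. The windows follow a list that the study used for Xrcc4/p53-deficient cells, and it treats hotspots of wild-type cells separately. The direction of this genotype difference is therefore not independent evidence.

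Members were then set against the other translocations of the same library. In Aph-treated Xrcc4/p53-deficient cells 11.5% of members and 7.70% of other translocations lay in windows, a gap of 3.82 points in 9 of 9 libraries (exact sign-flip permutation, adjusted p = 0.0128). In DMSO the gap was 0.564 points, with 15 of 17 libraries higher (adjusted p = 0.0148, exact sign-flip permutation), over 3.97% of other translocations, but it did not pass with windows of 2 Mb (0.727 points) or with no minimum of members (0.434 points). By the same exact test it was -0.135 points in ART558 (adjusted p = 0.811) and 0.530 points in Aph+ART558 (8 of 9 higher, adjusted p = 0.0511), over 4.44% and 5.24% of other translocations. The gap in Aph+ART558 passed without the thinnest library, that of the chromosome 8 bait with 325 translocations (adjusted p = 0.01875, exact sign-flip permutation) and with the further RDC genes (0.957 points, adjusted p = 0.0468, exact sign-flip permutation). In the exact test wild-type gaps were -0.385 points in Aph (adjusted p = 0.594) and 0.516 points in Aph+ART558 (adjusted p = 0.514), and 0.319 and -0.401 points without the chromosome 6 bait. The gap differed between Aph and DMSO by 2.94 points (adjusted p = 0.0075, exact permutation) and between Aph+ART558 and Aph by -3.33 points (adjusted p = 0.0075, exact permutation), tests that were added later and share the Aph libraries. Within runs the latter was -2.58 points, from 3 chromosome 6 libraries against 1.

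**Figure D3:**
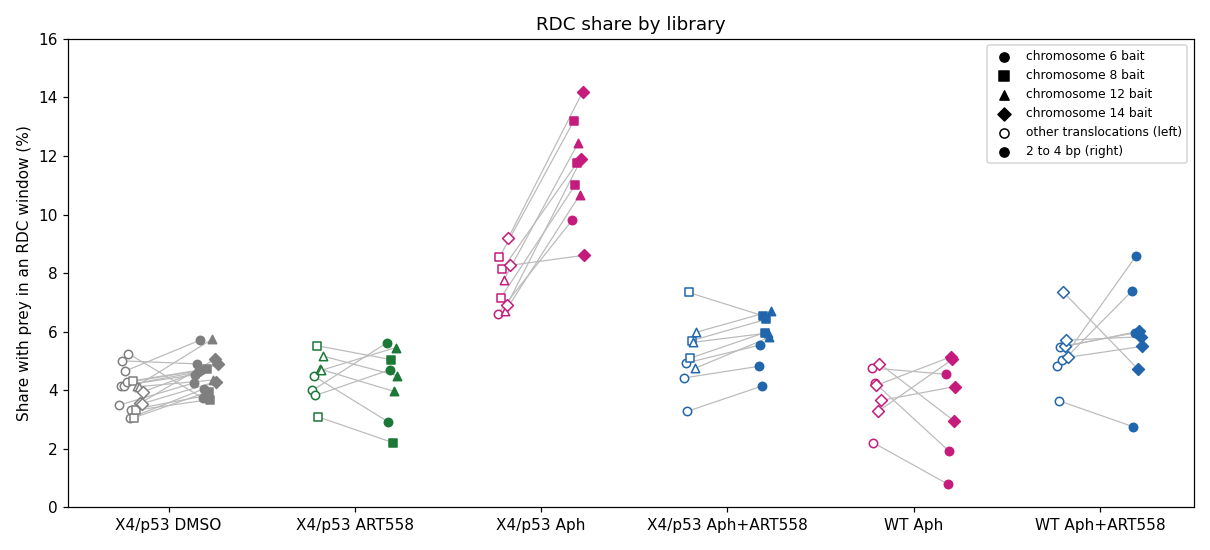
Share of junctions with prey in an RDC window (%), 1 point per library, open for other translocations and filled for 2 to 4 bp joins of the same library, joined by a line, with the bait given by the symbol (X4/p53, Xrcc4/p53-deficient; WT, wild-type NSPC). In X4/p53 Aph libraries all 9 lines rise, from a mean of 7.70% to a mean of 11.5%.

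In Xrcc4/p53-deficient Aph libraries windows held 11.4% of 2 bp joins, 11.9% of 3 bp joins and 11.3% of 4 bp joins. In wild-type cells the lengths were less alike, with 2.56%, 4.42% and 3.58% in Aph and 5.19%, 7.73% and 5.27% in Aph+ART558. The windows of the Xrcc4/p53-deficient Aph libraries held 6.65% of direct joins, 7.53% of 1 bp joins, 7.28% of joins with 5 bp or more and 9.83% of joins with insertions. In Aph+ART558 the range was narrower, from 4.54% of direct joins to 6.47% of 4 bp joins, with 7.61% for insertions. Read the other way, 2 to 4 bp joins were 48.3% of translocations inside windows and 37.6% elsewhere in Aph. They were 48.1% and 44.6% in DMSO, 26.1% and 27.1% in ART558, and 29.7% and 27.4% in Aph+ART558. These shares by length are descriptions.

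Members inside windows had kept more of the bait end than members elsewhere in Aph-treated Xrcc4/p53-deficient cells. Mean loss was 16.4 against 23.3 bp on the chromosome 8 bait, 27.5 against 44.3 bp on the chromosome 12 bait, 37.0 against 51.5 bp on the chromosome 14 bait and 16.3 against 20.4 bp on the chromosome 6 bait. The difference was -11.3 bp, lower in 9 of 9 libraries (exact sign-flip permutation, adjusted p = 0.0141). Other translocations showed it too, with -12.9 bp in 9 of 9 libraries. By the same exact test it was -1.90 bp in DMSO (adjusted p = 0.422), where the sign differed by bait, and -1.93 bp in ART558 (adjusted p = 0.125), the latter called with the further RDC genes (-0.945 bp). The DMSO values were 0.877 bp on chromosome 6 (6 of 9 libraries higher), -4.58 bp on chromosome 8 (3 of 3 lower), -4.97 bp on chromosome 12 (2 of 2 lower) and -5.50 bp on chromosome 14 (2 of 3 lower). The difference between Aph and DMSO was -6.95 bp (adjusted p = 0.0769, exact permutation) and passed with medians (-12.5 bp), and that between ART558 and DMSO was 1.57 bp (adjusted p = 0.422, exact permutation). In Aph+ART558 it was -2.14 bp (adjusted p = 0.166, exact sign-flip permutation), which differed from Aph by 7.48 bp (adjusted p = 0.0113, exact permutation), though not past the threshold with medians (7.92 bp) or within runs (2.35 bp, from 3 chromosome 6 libraries against 1). Wild-type Aph libraries with enough window members, 4 on the chromosome 14 bait, had -8.81 bp and were all lower, where the smallest exact p is 0.125 (adjusted p = 0.188). Wild-type Aph+ART558 libraries had -8.43 bp on the chromosome 14 bait (4 of 4 lower) and 10.8 bp on the chromosome 6 bait (2 of 2 higher), -2.02 bp in all (exact sign-flip permutation, adjusted p = 0.662) and 0.187 bp with the further RDC genes. These tests were added after the first results were seen.

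**Figure D4:**
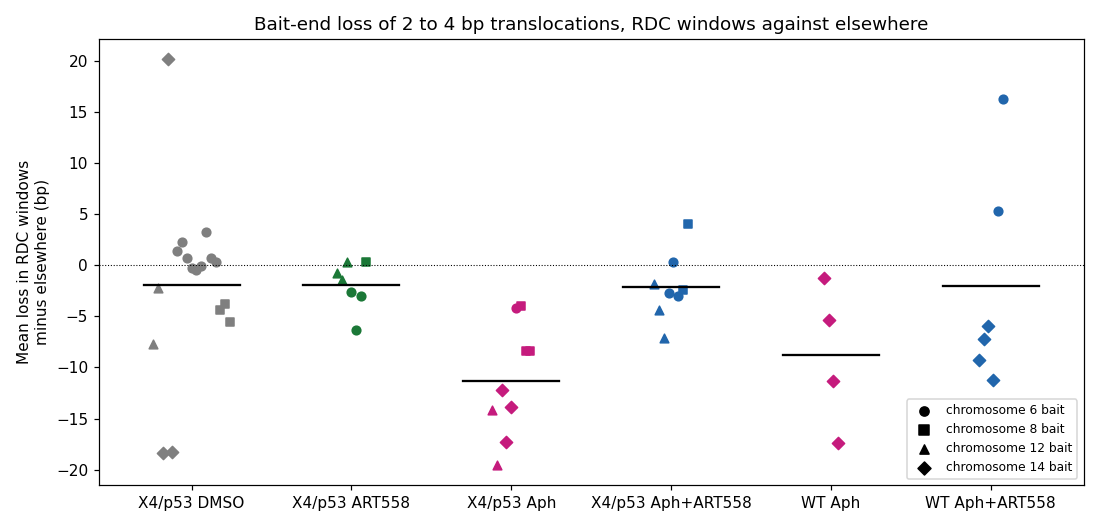
Mean bait-end loss (bp) of members in RDC windows minus that of members elsewhere, 1 point per library with at least 10 members in windows, with a line at the group mean and the bait given by the symbol (X4/p53, Xrcc4/p53-deficient; WT, wild-type NSPC). All 9 X4/p53 Aph libraries lie below 0, with a mean of -11.3 bp.

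Window by window, members were spread widely. In Aph-treated Xrcc4/p53-deficient cells 101 of the 102 windows held at least 1 member, as in DMSO, with 100 in Aph+ART558 and 89 in ART558. Wild-type cells had members in 65 windows in Aph and 83 in Aph+ART558. These counts depend on depth and are not compared between genotypes. Wild-type libraries held on average 475 members in Aph and 560 in Aph+ART558, and Xrcc4/p53-deficient libraries 1046 and 1055. The windows below were chosen by their number of members, so their rates, pooled over libraries and given per 1000 translocations, are descriptions. Choice by the members of a group also favours high rates and member shares in that group. Over all windows together, members were on average 48.3% of translocations in Aph libraries, with the Aph+ART558 share given above. The Aph group holds 3 libraries of the chromosome 14 bait and 1 of chromosome 6, and the Aph+ART558 group none and 3, so drug and bait makeup cannot be told apart in these rates.

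The Auts2 window led. Auts2 encodes a nuclear regulator of neuronal development and lies on the minus strand of chromosome 5 at 131437333 to 132543344 (GRCm38, GENCODE M21, as for the genes below). In Aph 59 of its 100 translocations were members, a rate of 2.28 per 1000, with 1.21 to 4.55 in single libraries and members in all 9. The rate was 0.606 in DMSO (33 members), 0.129 in ART558 (3 members) and 0.451 in Aph+ART558 (16 of 47 translocations). Of 120 Auts2 window members over all groups 118 lay within the gene body.

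Other named windows held synaptic and adhesion genes. Magi2, at 19227036 to 20704792 on the plus strand of chromosome 5, encodes a synaptic scaffold. It had 32 members of 59 translocations in Aph (1.24 per 1000), and 4 of 35 in Aph+ART558 (0.113). Ctnna2, at 76881637 to 77979699 on the minus strand of chromosome 6, had 29 of 52 in Aph (1.33 per 1000, members in 8 of 8 libraries) and 8 of 26 in Aph+ART558 (0.322), with 0.381 in DMSO and 0.202 in ART558. Sdk1, a cell adhesion molecule of the immunoglobulin superfamily, had 18 of 33 in Aph (0.696 per 1000) and 6 of 17 in Aph+ART558 (0.169). Chromosome 6 bait libraries are not counted for Ctnna2, nor chromosome 14 bait libraries for Nrg3, because the bait chromosome is outside the rule.

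Further windows held genes of kinases, phosphatases and other signalling proteins. Erbb4, at 68032186 to 69108059 on the minus strand of chromosome 1, encodes the receptor of neuregulins. It had 23 of 36 in Aph (0.889 per 1000) and 2 of 9 in Aph+ART558 (0.0564). The ligand gene Nrg3, at 38368952 to 39473088 on the minus strand of chromosome 14, had 16 of 37 in Aph (0.790) and 19 of 64 in Aph+ART558 (0.536), with 0.307 in DMSO. Ptprt, at 161521990 to 162661147 on the minus strand of chromosome 2, encodes a receptor tyrosine phosphatase. It had 28 of 50 in Aph (1.08) and 3 of 23 in Aph+ART558 (0.0846), and 42 members in DMSO (0.771), more than any other named window in that group. Prkg1, at 30564489 to 31765033 on the minus strand of chromosome 19, encodes a cGMP-dependent kinase. It had 30 of 53 in Aph (1.16) and 15 of 49 in Aph+ART558 (0.423). Pde4d, a cAMP phosphodiesterase, had 5 members in Aph (0.193) and 14 of 25 in Aph+ART558 (0.395). Nrg3 and Pde4d were among the windows chosen for their Aph+ART558 members.

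The other windows named by the rule were Naaladl2, a relative of glutamate carboxypeptidase, Fhod3, a formin that organises actin, and Nkain2, a membrane protein that binds the sodium pump. Naaladl2 had 26 members of 63 in Aph (1.0 per 1000) and 25 of 52 in Aph+ART558 (0.705). Fhod3 had 24 of 50 (0.927) and 7 of 33 (0.197), and only 16 of its 47 members over all groups lay in the gene body itself. Nkain2 had 19 of 39 (0.734) and 7 of 30 (0.197). The Aph+ART558 library with 325 translocations reached 9.23 per 1000 in Naaladl2 and 6.15 in Nrg3 and in Ptprt, where so few translocations make each member weigh heavily.

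**Figure D5:**
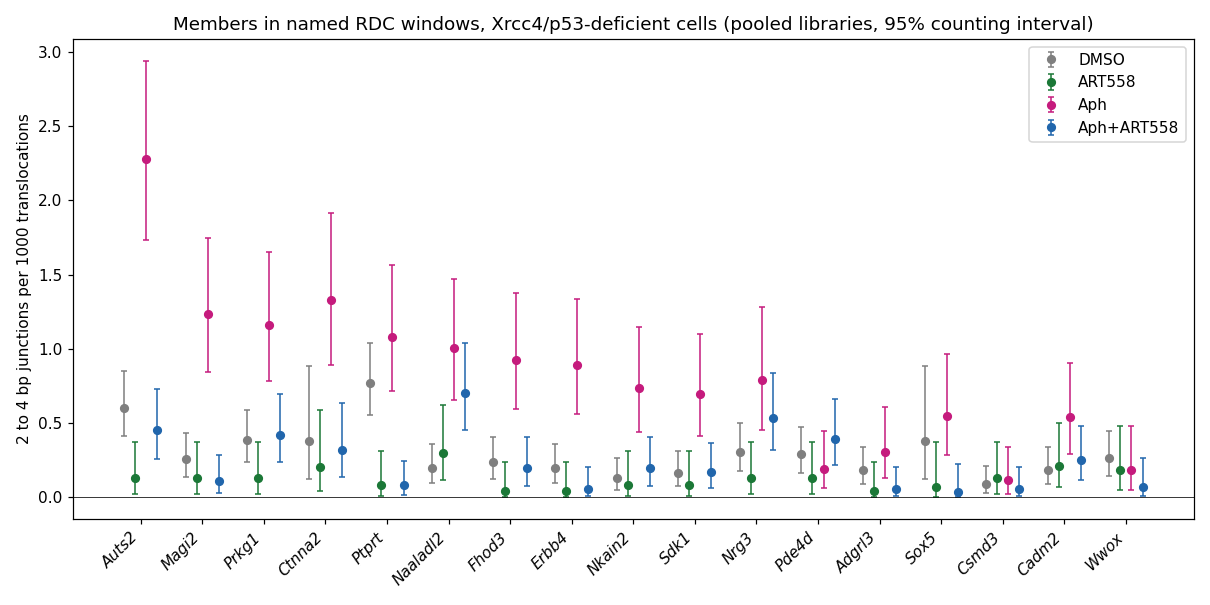
Members per 1000 translocations in the named RDC windows, pooled over the libraries of each group, with exact 95% Poisson intervals that cover counting error only and bait makeups that differ between the groups. Auts2 has the highest rate in Aph (2.28), the Aph and Aph+ART558 rates lie close together for Naaladl2 and Nrg3, and Pde4d has its higher rate in Aph+ART558 (0.395 against 0.193).

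The windows with the most wild-type members were others. Adgrl3, which encodes the adhesion receptor latrophilin 3, had 4 members in Aph and 17 of 35 translocations in Aph+ART558 (0.989 per 1000). Sox5, a transcription factor of neuronal differentiation, had 9 of 15 in Aph (0.955) and 3 in Aph+ART558 (0.243). Csmd3 had 4 and 8 members, the adhesion gene Cadm2 had 1 and 10, and Wwox, a gene at a known fragile site, had 3 and 7. Ctnna2 had 0 members among 1 translocation in Aph and 9 in Aph+ART558. Nrg3 had no translocation in either wild-type group, which could be read only from the chromosome 6 bait. These counts include repeats of the same join. With each join counted once per library, on average 80.0% of members remained in wild-type Aph and 83.5% in wild-type Aph+ART558. The chromosome 6 libraries also share junctions between replicates. With so few members no window could be compared between the drugs.

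Outside RDCs, members recurred at a few places. The 14 bins of 10 kb with members in 10 or more libraries held 2372 members, 4.13% of all. The bin at 98660000 of chromosome 2 held 792 members from 52 libraries, 28.1% of its 2814 translocations. They came from all 4 baits (352, 76, 215 and 149 for chromosomes 6, 8, 12 and 14) and from both genotypes (616 Xrcc4/p53-deficient and 176 wild-type). Whether breaks recur in such bins, or how uniquely their reads align, was not tested. The bin at 19410000 of chromosome 14 held 560 members from 39 libraries (25.6% of its translocations), and the bins at 35300000, 3020000 and 3000000 of chromosome 9 held 152, 82 and 78 (26.0%, 25.4% and 28.3%). These shares pool libraries of different baits and genotypes, so they are not compared with the whole set. Leaving out all 14 bins changed no call and no direction among the 54 tested differences.

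Some recurrent places resemble a guide, and 1 is printed because members piled up within 1 kb of it. Capitals mark bases that differ from the chromosome 6 guide, and the last 3 bases stand where the guide's PAM (the motif Cas9 needs) would be. The site is at chr4:141560026-141560048 on the minus strand and has 5 mismatches. The places were chosen after their values were seen.
Chromosome 6 guide-like site: AGgggCtggaaatgcCcgtGagg
Within 1 kb of it lay 155 members among 261 translocations of that bait (59.4%). A place with 4 mismatches to the chromosome 8 guide held 210 members among 404 translocations of the chromosome 8 bait (52.0%). Another with 5 mismatches, in a bin with members in 9 libraries and so below the limit for recurrence, held 18 of 34 (52.9%). These counts are of 1 bait each, and the 2 to 4 bp shares of all translocations in the DMSO libraries of those baits reached 49.3% for chromosome 8 and 53.7% for chromosome 6, so no comparison with the whole set is made. Whether Cas9 cuts there was not tested.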

How the data were processed

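LAM-HTGTS junctions of 60 libraries were used, and the Repli-seq samples of the series were not used here. Per the study's methods, the authors demultiplexed and trimmed paired reads, aligned them with Bowtie2 to mm10 (GRCm38) and called junctions with the HTGTS pipeline. They deposited 1 table per library, in which each row is 1 junction with scores giving its position, strand and bait and prey alignment limits. One table ended within a line, and its complete rows were used. The number of junctions sets the precision, and intervals cover counting error only. Homology was the bait's last query position minus the prey's first, plus 1. The reference was GRCm38 with GENCODE M21. RDC positions were taken from the lists that accompany the study, without its values, and each window was centred on 1 position.

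The members, gene lists and windows were chosen with earlier results of these data known. Libraries with at least 50 members were compared by reassigning drug or genotype labels among the libraries of 1 bait in every possible way (exact permutation, two-sided), taking the mean of the bait differences, or by exact sign-flip permutation of differences within a library. Benjamini-Hochberg adjustment covered 36 designed tests and, separately, 18 tests added after seeing the data, at a threshold of 0.05. The functions were tested on simulated data. RDC windows named are the 10 with the most members in Xrcc4/p53-deficient Aph libraries, the 5 in Aph+ART558, the 5 in wild-type cells, plus Ctnna2 and Nrg3. Bait ends named are the 3 most frequent per bait, and prey bins the 5 found in the most libraries. Alternatives changed the window width, loss definition, minimum and libraries used. Python 3.11.15, NumPy 2.4.6, SciPy 1.17.1, pandas 2.3.3 and Matplotlib 3.10.9 were used. The sequence at the chromosome 8 bait is not reported here. Replicate numbers met the limit for pairing only in the wild-type libraries of the chromosome 14 bait, where deviations of all 4 same-numbered pairs correlated above 0.1 (0.183 to 0.419). The main tests did not pair libraries by number there or elsewhere. The alternatives with the replicate number as a block paired same-numbered libraries on every bait.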

Additional observations from a re-analysis of the deposited data

Results flagged for a closer look

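Values of 3 libraries stood apart from the rest of their group, where chance marks about 1 in 20 of the 30 groups and measures examined. Replicate 2 of the chromosome 14 DMSO group had 15.8% of translocations with 2 to 4 bp and an RDC share of 0%, with 21 members among 133 translocations, so it was left out of all comparisons. Replicate 2 of the chromosome 6 DMSO group of the other collection had the highest 2 to 4 bp share, 53.7%, against 49.4 to 51.1% in its 6 fellow libraries. Replicate 2 of the wild-type Aph+ART558 group on the chromosome 14 bait had a mean loss of 78.1 bp, against 76.6 to 76.9 bp in the other 3.

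Several within-library gaps differed between drugs in Xrcc4/p53-deficient cells. The gap in RDC share between members and other translocations changed by -3.33 points for Aph+ART558 against Aph and by 2.94 points for Aph against DMSO. The gap in loss between members and direct joins changed by 10.1 bp for ART558 against DMSO, 5.67 bp for Aph+ART558 against Aph and 3.02 bp for Aph against DMSO. The gap in loss between RDC windows and elsewhere changed by 7.48 bp for Aph+ART558 against Aph. Within sequencing runs, which for Aph+ART558 against Aph left the chromosome 6 bait with 3 libraries against 1, the 3 values of that comparison were -2.58 points, 1.03 bp and 2.35 bp, and the others were 3.33 points, 10.4 bp and 3.21 bp.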

How the results depend on the processing

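Of 774 alternative values for 54 tested differences, 669 kept direction and call, 73 lost the call, 6 gained it and 26 turned. Of 36 designed differences 21 were called, and of 18 added ones 7. Counting each junction once per library, or leaving out recurrent bins, changed none of the 54. The cause of the changes below was not tested. In windows of 2 Mb, the RDC difference was 0.0321 points for ART558 against DMSO (turned) and 2.19 for wild-type Aph+ART558 against Aph (lost), and the gap to other translocations was 0.727 in DMSO (lost) and -0.242 in wild-type Aph+ART558 (turned). With 2 bp joins alone, the RDC difference of ART558 against DMSO turned (0.361), GC differences of -0.942 (ART558 against DMSO) and -1.17 (Aph+ART558 against Aph) lost the call, and the wild-type one turned (-0.824). Near-intact ends in Aph+ART558 against Aph lost the call at 5 bp (-2.36) and with homology counted as lost (-5.17). The latter setting also gave gaps to direct joins of -3.19 bp in DMSO and -4.77 in Aph (lost) and 3.55 in Aph+ART558 (gained). With medians, the gap to direct joins differed by 5.0 bp between Aph and DMSO (lost), and the gap between RDC windows and elsewhere by -1.89 for ART558 against DMSO and -5.75 in wild-type cells (turned), 7.92 for Aph+ART558 against Aph (lost) and -12.5 for Aph against DMSO (gained). With no minimum of members the RDC gap in DMSO was 0.434 (lost), and against other translocations of 0 to 10 bp it was 1.06 in Aph+ART558 (gained). With windows added for the further RDC genes, that gap was 0.957 in Aph+ART558 and the loss gap between windows and elsewhere -0.945 bp in ART558 (gained), and the loss gap was 0.187 bp in wild-type Aph+ART558 and differed by -0.672 bp between the wild-type groups (turned).

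Same-numbered libraries correlated above 0.1 in 13 of 25 pairs (-0.336 to 0.528), in all 4 pairs of the wild-type chromosome 14 bait but not in all pairs of any other bait with 3 or more in a comparison, so only the former met the limit for pairing. The blocked values below nevertheless pair same-numbered libraries on every bait. With the replicate number as a block the designs allow a smallest p of 0.0312 for the Xrcc4/p53-deficient inhibitor comparisons, which all values below of that kind reached, and of 0.25 for genotype. Blocked values without a call were, for ART558 against DMSO, 17.2 bp of loss, -23.4 points of near-intact ends and -4.02 of GC. For Aph+ART558 against Aph they were 14.1 bp, -12.7, -2.13 of GC and -5.57 of RDC share. For genotype on the chromosome 14 bait they were 24.1 bp, -8.37 and -7.18 of RDC share. In wild-type cells the blocked RDC difference was 1.95, and loss turned to 0.193 bp.

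Within sequencing runs, Aph+ART558 against Aph leaves 3 chromosome 6 libraries against 1, where the smallest p of 0.25 allows no call. It gave 2.02 bp of loss, -4.98 of RDC share and -2.23 of GC (lost) and 1.47 of near-intact ends (turned), and gap differences of -2.58 points of RDC share, 1.03 bp to direct joins and 2.35 bp between windows and elsewhere (lost). ART558 against DMSO gave -2.77 of GC (lost), 0.0375 of RDC share and -0.0762 bp between windows and elsewhere (turned). Without the wild-type chromosome 6 bait, Aph+ART558 against Aph gave 1.75 bp, -2.29 of near-intact ends, -1.84 of GC and -0.720 of the RDC gap (turned) and 1.20 of RDC share (lost). The RDC gap was 0.319 in Aph and -0.401 in Aph+ART558 (turned), and the gap to direct joins 19.4 and 18.6 bp (lost, with fewer libraries).

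Leaving out 1 library at a time gave these ranges where a call or direction changed. In wild-type cells, Aph+ART558 against Aph ran from -1.92 to 0.755 bp of loss, from -0.0776 to 3.92 points of GC and from 2.07 to 3.05 of RDC share, and the gap to direct joins in Aph from 14.3 to 17 bp. Genotype on the chromosome 14 bait ran from 23.2 to 27.7 bp, -11.2 to -8.04 of near-intact ends and -8.73 to -5.93 of RDC share, where the smallest p is at least 0.0667. Near-intact ends in Aph+ART558 against Aph ran from -14.7 to -8.44. The RDC difference of ART558 against DMSO ran from -0.613 to 0.332, and the RDC gap from -0.387 to 0.0700 in ART558 and from 0.463 to 0.695 in Aph+ART558, where it was called without the thinnest library.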
